A study of Mus musculus with 4 samples.

Results

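The glucocorticoid receptor, the enzyme that activates its hormone inside cells and 7 genes that the hormone induces were followed in the skin of mice without the clock gene Bmal1. The 9 genes were taken by symbol from the deposited values: Nr3c1, Hsd11b1, Fkbp5, Tsc22d3, Sgk1, Klf9, Zbtb16, Dusp1 and Cebpd. They are 9 of the 19938 genes named by the probe sets that carry a single symbol, and each had 1 such probe set. All 9 passed the filter on dim probe sets.

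Glucocorticoids are adrenal steroid hormones, corticosterone in the mouse, that are secreted with a daily rhythm under the control of the brain clock. The hormone binds the glucocorticoid receptor in the cytoplasm, where heat shock protein 90 and immunophilins hold it, and the receptor then moves to the nucleus and binds glucocorticoid response elements in DNA. In skin, glucocorticoids restrain inflammation and proliferation and act on barrier formation and on the hair cycle. BMAL1 pairs with CLOCK and binds E-box elements, and Klf9 is known from human keratinocytes as a regulator whose level varies with the time of day.

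Whole back skin was taken from 2 Bmal1 knockout mice, which lack both copies of the gene in the germline, and from 2 heterozygous mice, which carry 1 mutant and 1 wild-type allele. All mice were C57Bl6 at postnatal day 22, with hair follicles in telogen, the resting phase, and were sampled at ZT22, that is, 22 hours after the lights came on. The deletion is present in every tissue, so the skin cannot be told apart from the rest of the body as its site of action, and both comparison mice carry a mutant allele too. Each mouse gave 1 Affymetrix whole-transcript array, and 4 arrays limit the precision of every value. The sources used here give no hormone levels for these mice.

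The sequences just before the gene starts show which members carry an E-box or a glucocorticoid response element close to a start. RefSeq windows (build GRCm38.p6) of 250 bases before the start, matched by symbol, were searched for 6 of the 9 members. Nr3c1, Zbtb16 and Cebpd were not searched. The windows numbered 13, since Sgk1 has 6 starts and Tsc22d3 has 3. Both strands were searched for the full glucocorticoid response element (AGAACA and TGTTCT with any 3 bases between them), its relaxed form (GNACA and TGTNC with any 3 bases between them), which overlaps every full one, the E-box CACGTG and the cyclic AMP response element TGACGTCA. The windows shown hold every match found, and that of Klf9, which had none, is shown because Klf9 is the member tied to the time of day in keratinocytes. Capitals mark the matches.
Sgk1, chr10:21993640-21993889, plus strand: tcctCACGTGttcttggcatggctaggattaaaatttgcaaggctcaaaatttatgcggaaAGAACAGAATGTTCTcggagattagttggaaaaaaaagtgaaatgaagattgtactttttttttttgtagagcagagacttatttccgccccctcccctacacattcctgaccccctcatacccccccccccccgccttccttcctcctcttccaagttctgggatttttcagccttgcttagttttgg
Dusp1, chr17:26508473-26508722, minus strand: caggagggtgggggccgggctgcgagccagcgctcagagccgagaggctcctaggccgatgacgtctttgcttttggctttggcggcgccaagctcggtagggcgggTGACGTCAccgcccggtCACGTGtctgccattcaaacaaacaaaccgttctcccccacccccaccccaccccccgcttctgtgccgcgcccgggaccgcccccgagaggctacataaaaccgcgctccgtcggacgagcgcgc
Fkbp5, chr17:28486150-28486399, minus strand: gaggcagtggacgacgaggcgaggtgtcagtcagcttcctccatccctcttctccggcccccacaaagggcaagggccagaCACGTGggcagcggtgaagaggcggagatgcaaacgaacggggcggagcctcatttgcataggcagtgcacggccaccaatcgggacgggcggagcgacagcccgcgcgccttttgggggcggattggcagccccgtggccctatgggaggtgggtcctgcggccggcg
Klf9, chr19:23140976-23141225, plus strand: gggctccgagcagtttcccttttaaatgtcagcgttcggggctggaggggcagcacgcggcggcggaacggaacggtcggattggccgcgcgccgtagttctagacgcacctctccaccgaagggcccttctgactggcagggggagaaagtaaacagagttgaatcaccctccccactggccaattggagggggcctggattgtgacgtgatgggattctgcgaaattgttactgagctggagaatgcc

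One Sgk1 window held an E-box and the full glucocorticoid response element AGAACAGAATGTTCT at chr10:21993701-21993715. The element ends 175 bases before the gene start that this window precedes. It ends 951 bases before the most downstream RefSeq start of Sgk1. The full element was found in 3 of 32817 windows of the same length across the genome, or 0.00914%, and the relaxed form in 0.387%. An E-box was found before 3 of the 6 members searched, in 1 window each of Sgk1, Dusp1 and Fkbp5. The members had 13 windows, and 6.02% of all windows held an E-box. The Dusp1 window also held a cyclic AMP response element, found in 1.55% of all windows. The windows of Hsd11b1, Tsc22d3 and Klf9 held none of these letters. A match describes the sequence only, and no binding was measured.

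Bmal1 (probe set symbol Arntl) had log2 signals of 8.29 and 8.15 in the knockout arrays, against 8.90 and 9.08 in the heterozygous arrays, a knockout level of 58.8% of the heterozygous one (limma adjusted p = 0.015). Its probes may lie partly outside the deleted sequence, so what is left of its signal cannot be read as a level of functional transcript. All 10 keratinocyte markers found on the array under a single symbol were above the filter, among them Krt5, Krt14 and Krt10. The differences below are log2 values, knockout minus heterozygous, from limma on quantile-normalized arrays, with p adjusted by Benjamini-Hochberg over 16341 tested probe sets. At that threshold of 0.05, 323 probe sets passed, or 1.98%. At an unadjusted p under 0.05 there were 17.9%. That adjusted count was 0 (2713 at an unadjusted p under 0.05) when probe sets annotated to several genes were added to the same limma test, so each adjusted call named here, Bmal1 included, was lost in that setting.

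None of the 9 members passed the thresholds used for a difference between knockout and heterozygous skin. By limma, 0 of 9 passed the adjusted threshold, where 1.98% of all tested probe sets did, and 0 of 9 had an unadjusted p under 0.05, where 17.9% did. The smallest unadjusted p was 0.19, for Tsc22d3. In 7 of 9 members the mean was lower in knockout skin, against 45.8% of all tested probe sets. The median difference of the members was -0.12, against 0.02 over all tested probe sets. The groups did not overlap for 2 of 9 members, Nr3c1 and Fkbp5, against 49.8% of all tested probe sets. After median centring in place of quantile normalization the median over all tested probe sets was 0.10 and 4 of 9 members were lower, with a members' median of 0.02. In bulk skin, fewer cells of a type and less RNA per cell cannot be told apart.

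**Figure D1:**
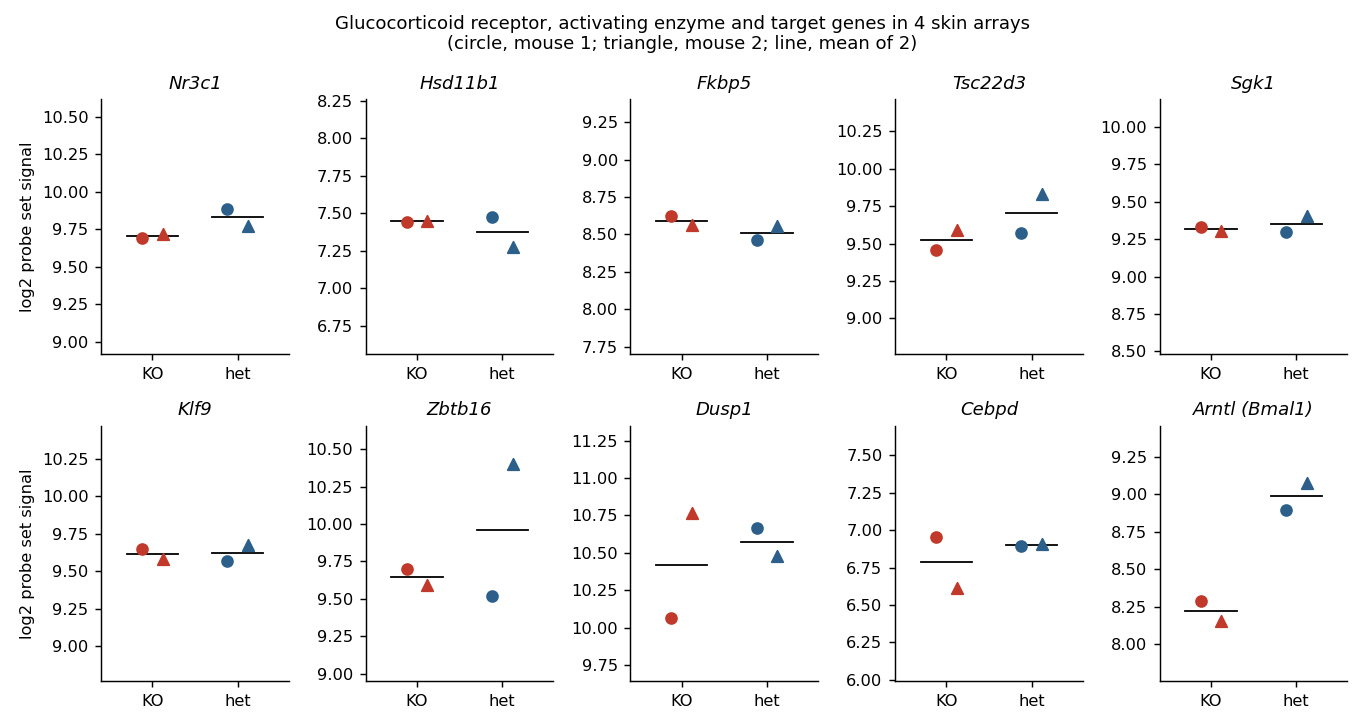
Log2 probe set signal of the 9 members and of Arntl in each array, with knockout (KO, red) left of heterozygous (het, blue) and a line at the mean of 2 mice; all panels span the same number of log2 units. The groups lie apart by less than 0.2 for 8 members, Zbtb16 has 1 high heterozygous array, Dusp1 has 1 low knockout array, and Arntl separates the genotypes.

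The receptor gene Nr3c1 had log2 signals of 9.69 and 9.71 in knockout skin, against 9.89 and 9.77 in heterozygous skin. Both knockout arrays lay below both heterozygous arrays, as in 22.1% of all tested probe sets. The difference was -0.13 (SE 0.11, n = 2 per genotype, limma adjusted p = 0.594), with a 95% interval of -0.38 to 0.12, which is a knockout level between 77.1% and 109% of the heterozygous one. After median centring the difference was 0.02. With the values as deposited it was -0.02, and the groups overlapped. The deposited signals were 9.77 and 9.75 in knockout skin, against 9.84 and 9.71 in heterozygous skin.

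Hsd11b1, the 11-beta-hydroxysteroid dehydrogenase that regenerates active corticosterone from its inert form, had 7.44 and 7.45 in knockout skin, against 7.47 and 7.27 in heterozygous skin. The heterozygous arrays lay on either side of the knockout pair. The difference was 0.07 (SE 0.13, limma adjusted p = 0.815), with an interval of -0.22 to 0.37, and it was -0.03 without heterozygous mouse 2.

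Among the induced genes, 3 are known to feed back on the hormone or to carry its effects. Fkbp5, an immunophilin that lowers the hormone affinity of the receptor, had 8.62 and 8.56 in knockout skin, against 8.46 and 8.56 in heterozygous skin. The knockout arrays lay above the heterozygous ones, as in 27.8% of all tested probe sets, but the nearest pair differed by less than 0.01. The difference was 0.08 (SE 0.11, limma adjusted p = 0.738), with an interval of -0.16 to 0.33. It was 0.22 after median centring and 0.18 with the values as deposited.

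Tsc22d3, which encodes the leucine zipper protein GILZ of the anti-inflammatory response, had 9.45 and 9.59 in knockout skin, against 9.57 and 9.83 in heterozygous skin. The groups overlapped, with heterozygous mouse 2 the highest. The difference was -0.18 (SE 0.13, limma adjusted p = 0.499), with an interval of -0.46 to 0.11, and it was -0.05 without heterozygous mouse 2 and -0.04 after median centring.

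Sgk1, a kinase that regulates sodium channels, had 9.33 and 9.30 in knockout skin, against 9.30 and 9.40 in heterozygous skin. Its difference was -0.03 (SE 0.11, limma adjusted p = 0.912), with an interval of -0.28 to 0.21, or 82.5% to 116% of the heterozygous level. The sign of so small a value turned after median centring (0.11) and with the values as deposited (0.08). This is the member with the full response element shown above.

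The other 4 induced genes encode 3 transcription factors and a phosphatase. Klf9, a zinc finger factor of the Krüppel-like family, had 9.65 and 9.58 in knockout skin, against 9.57 and 9.68 in heterozygous skin. The knockout arrays lay inside the heterozygous range, and the difference was -0.01 (SE 0.11, limma adjusted p = 0.977). Its 95% interval of -0.26 to 0.24 covers knockout levels from 83.6% to 118% of the heterozygous one. Across other settings the difference lay between -0.06, without heterozygous mouse 1, and 0.13, after median centring.

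Cebpd, a CCAAT/enhancer binding protein of acute phase responses, had 6.95 and 6.62 in knockout skin, against 6.89 and 6.91 in heterozygous skin. The knockout arrays lay on either side of the heterozygous pair, and the difference was -0.12 (SE 0.16, limma adjusted p = 0.754) with an interval of -0.48 to 0.25. Without knockout mouse 2 it was 0.05, after median centring -0.19 and as deposited -0.23.

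**Figure D2:**
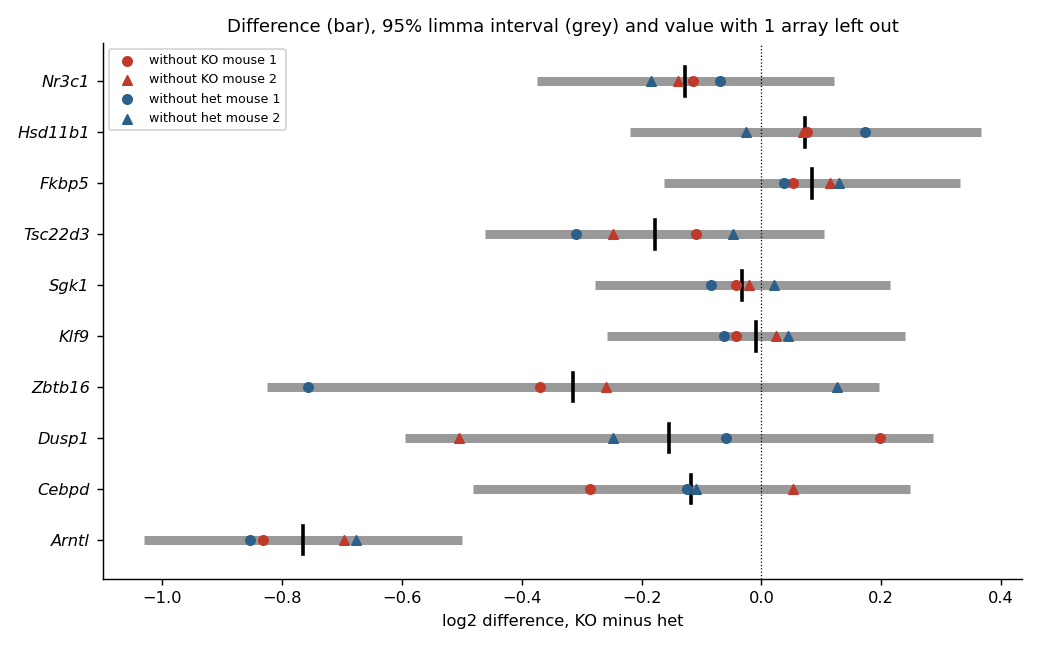
Log2 difference, knockout minus heterozygous, of each member and of Arntl (black bar), with its 95% limma interval (grey) and the value with each array left out (red, knockout arrays; blue, heterozygous arrays). The interval of every member includes 0, and the values of Zbtb16 and Dusp1 move with a single array, from -0.76 to 0.13 and from -0.50 to 0.20.

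For Zbtb16 and Dusp1 the difference turned on single arrays. Zbtb16, which encodes the zinc finger factor PLZF, had 9.70 and 9.59 in knockout skin, against 9.52 and 10.40 in heterozygous skin. Heterozygous mouse 2 stood 0.70 above the next array, a gap reached by that array in 0.318% of tested probe sets (52). The difference was -0.31 (SE 0.23, limma adjusted p = 0.509), with an interval of -0.83 to 0.20. Without heterozygous mouse 1 it was -0.76 (limma adjusted p = 0.0166), and without heterozygous mouse 2 it was 0.13 (limma adjusted p = 0.768). With an array left out, its genotype has 1 mouse, and the spread comes only from the other genotype's 2 mice and the limma prior, here and in every such value below, so the -0.76 rests on the single high array. After median centring the Zbtb16 difference was -0.17. The 20 skeletal muscle markers had a mean log2 signal of 11.91 and 11.59 in knockout skin, against 11.11 and 11.36 in heterozygous skin, so heterozygous mouse 2 was not the highest array for that list. Slow-fibre muscle genes, which were chosen after their values were seen, were high in that array. Of those given here, Myl2 and Tnnc1 are not on that list, and Myh7 is. Myl2, a slow myosin light chain, had 6.13 and 6.07 in knockout skin, against 6.32 and 8.19 in heterozygous skin. Tnnc1, the slow troponin C, had 6.99 and 6.94, against 7.06 and 8.89, in the same order of arrays, and Myh7, the slow myosin heavy chain, had 7.27 and 7.15, against 7.55 and 8.31. Outside heterozygous mouse 2, Myl2 lay below the filter value of 6.67 in every array, so it was tested only through that array. Among the 52 probe sets with such a gap were also genes of other kinds. Examples are the vomeronasal receptor gene Vmn2r9 (gap 1.17) and the olfactory receptor gene Olfr514 (gap 1.08). The profiles nearest to that of Zbtb16 over the 4 arrays were Grik2, Tchhl1 and Try5. These genes too were named after their values were seen. Grik2, like Myl2, passed the filter only through heterozygous mouse 2. The part of muscle content in the Zbtb16 value was not tested.

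Dusp1, a phosphatase that inactivates MAP kinases and is also an immediate early gene, had 10.07 and 10.77 in knockout skin, against 10.67 and 10.48 in heterozygous skin. Knockout mouse 1 was the lowest array and knockout mouse 2 the highest. The gap of 0.41 below the next array was reached by knockout mouse 1 in 0.526% of tested probe sets (86). The difference was -0.15 (SE 0.20, limma adjusted p = 0.732), with an interval of -0.59 to 0.29. It was -0.50 without knockout mouse 2 (limma adjusted p = 0.164) and 0.20 without knockout mouse 1. After median centring it lay within 0.01 of 0.

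The same array was low for some other immediate early genes, the genes that cells induce first after a stimulus. Fos had 8.01 and 9.51 in knockout skin, against 9.26 and 9.42 in heterozygous skin. Fosb had 7.68 and 8.86 in knockout skin, against 8.98 and 9.08 in heterozygous skin, and Egr1 had 9.19 and 9.80, against 9.76 and 9.80. Over the 18 tested genes of that list, knockout mouse 1 was the lowest array for 7, or 38.9%, against 17.9% of all tested probe sets. It was the highest array for 6, Ier5 among them, or 33.3%, against 35.3% of all tested probe sets. The list had 0 genes higher and 2 lower in knockout skin at an unadjusted p under 0.05, Fosb and Atf3, where 11.6% of all tested probe sets were higher and 6.38% lower. None passed after adjustment, and its median difference was -0.12. Without knockout mouse 1 the counts were 0 higher and 0 lower, and Fosb differed by -0.17. Without knockout mouse 2 they were 0 higher and 5 lower. After median centring they were 1 higher and 1 lower, with a median of -0.03, and Atf3 no longer had an unadjusted p under 0.05.

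**Figure D3:**
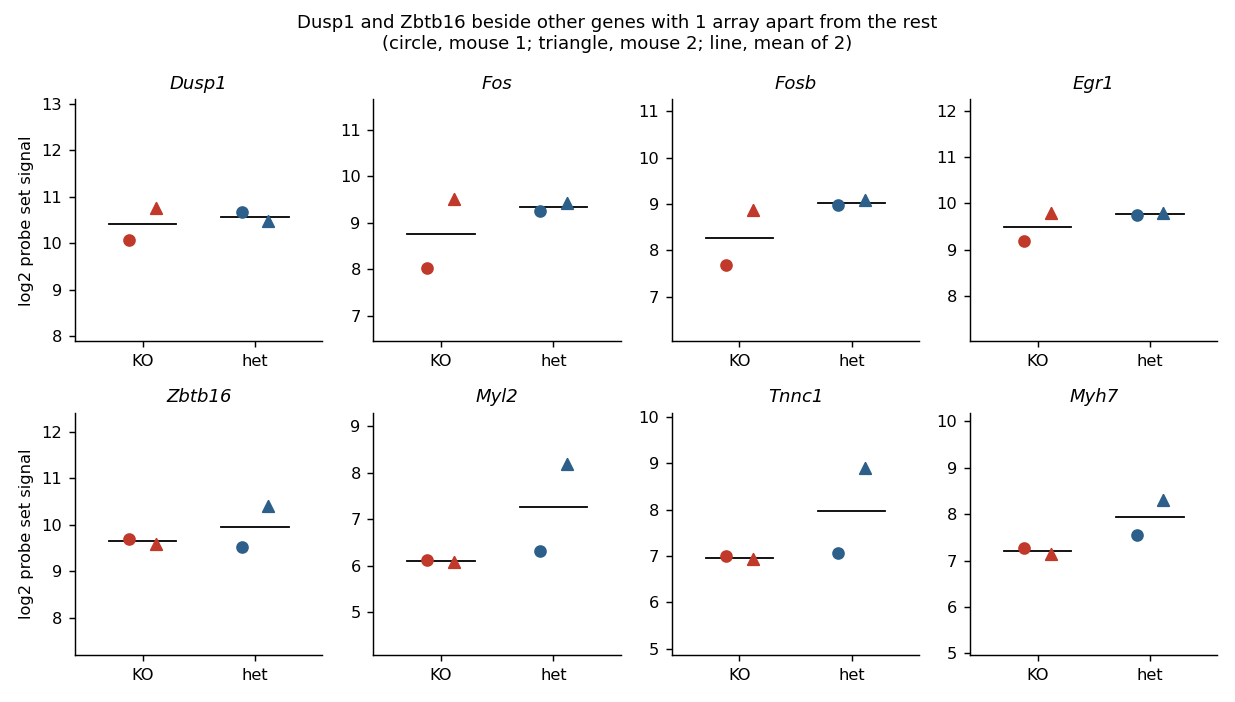
Log2 probe set signal by array of Dusp1 with Fos, Fosb and Egr1 (top) and of Zbtb16 with Myl2, Tnnc1 and Myh7 (bottom), knockout left of heterozygous, with equal axis spans. The circle of knockout mouse 1 is the low point in each top panel, and the triangle of heterozygous mouse 2 is the high point in each bottom panel. Myl2 passed the filter on dim probe sets only through heterozygous mouse 2.

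A list of proteins that hold the receptor, its coregulators, the mineralocorticoid receptor and enzymes around Hsd11b1 had 21 tested of 24 genes. Of these 21, 14 had a higher mean in knockout skin and 7 a lower one. Their median difference was 0.11, against 0.02 over all tested probe sets. At an unadjusted p under 0.05, 4 were higher and 1 lower, where the background was 11.6% and 6.38%. After median centring 7 were higher and 0 lower, with a median of 0.23, and as deposited 7 were higher and 0 lower, with a median of 0.20. Ppargc1a, a coactivator of nuclear receptors and of mitochondrial genes, rose by 0.54 (SE 0.11, limma adjusted p = 0.0419), with 8.40 and 8.45 in knockout skin, against 7.90 and 7.88 in heterozygous skin. Its other probe set differed by 0.39 (limma adjusted p = 0.172). The call ended without knockout mouse 1, at a difference of 0.56 (limma adjusted p = 0.198). It also ended without knockout mouse 2, at 0.51 (limma adjusted p = 0.159), and without heterozygous mouse 2, at 0.53 (limma adjusted p = 0.0829).

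Fkbp4, the immunophilin that opposes Fkbp5 and favours transport of the receptor, had 9.20 and 9.04 in knockout skin, against 8.68 and 8.36 in heterozygous skin. It differed by 0.60 (SE 0.13) and did not pass (limma adjusted p = 0.057), but passed after median centring, at 0.74 (limma adjusted p = 0.0116). Nr3c2, the mineralocorticoid receptor, which also binds corticosterone, had 7.50 and 7.26 in knockout skin, against 6.94 and 6.90 in heterozygous skin, a difference of 0.45 (SE 0.14, limma adjusted p = 0.14). Hsp90aa1, the inducible form of heat shock protein 90, differed by 0.34 (limma adjusted p = 0.268), and Crebbp, a histone acetyltransferase, by -0.36 (limma adjusted p = 0.211). Without heterozygous mouse 2 the difference was 0.44 for Fkbp4 and 0.12 for Hsp90aa1, whose other 2 probe sets then differed by 0.07 and 0.05. Without heterozygous mouse 1 Hsp90aa1 passed, at 0.56 (limma adjusted p = 0.0402), and Fkbp4 passed, at 0.76 (limma adjusted p = 0.0169). Crebbp differed by -0.23 after median centring and by -0.18 without knockout mouse 2. The enzymes around Hsd11b1 did not pass either: H6pd, which supplies its cofactor, differed by 0.11 and Hsd11b2, which inactivates the hormone, by -0.12.

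Genes of local steroid synthesis and of the pituitary hormone ACTH numbered 14, of which 7 were tested and 6 lay below the filter. Hsd3b6, a 3-beta-hydroxysteroid dehydrogenase, rose by 1.47 (SE 0.17, limma adjusted p = 0.00673), with 11.58 and 11.38 in knockout skin, against 10.29 and 9.73 in heterozygous skin. It was the 1 gene of the list with an unadjusted p under 0.05. Cyp17a1, a steroid hydroxylase, differed by 0.22 and Fdx1, which passes electrons to mitochondrial P450 enzymes, by 0.27, and neither passed. Star, which brings cholesterol into mitochondria, differed by 0.04. Sebocyte markers moved with Hsd3b6: 11 of 12 tested were higher in knockout skin, 7 of them at an unadjusted p under 0.05. Over all tested probe sets, 45.8% had a lower mean in knockout skin, and 11.6% were higher at an unadjusted p under 0.05. The mean log2 signal of the sebocyte markers was 11.73 and 11.66 in knockout skin, against 11.41 and 11.04 in heterozygous skin. Their median difference was 0.56, and 0.32 without heterozygous mouse 2. The part of sebaceous gland content in the Hsd3b6 value was not tested.

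**Figure D4:**
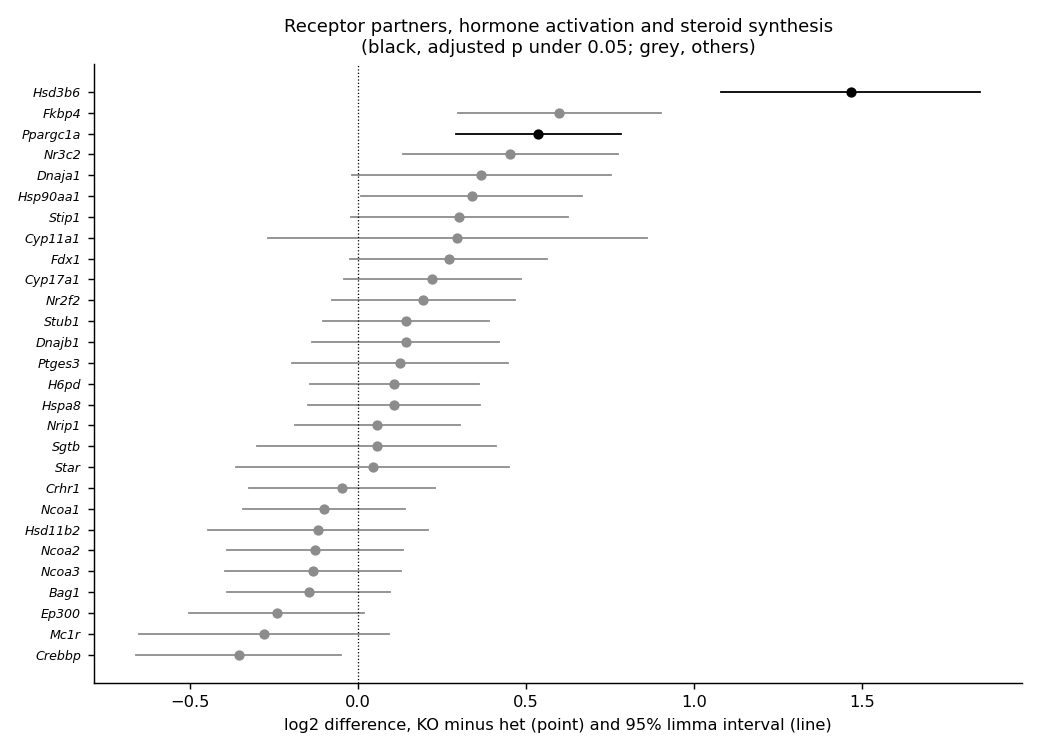
Log2 difference, knockout minus heterozygous (points), with 95% limma intervals (lines) for the tested receptor partners, coregulators and genes of hormone activation and steroid synthesis. Hsd3b6, at 1.47, and Ppargc1a, at 0.54, are drawn in black as the genes that passed the adjusted threshold.

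Other genes known to be induced by glucocorticoids went in both directions. Of 35 listed, 33 were tested, with 2 higher and 4 lower in knockout skin at an unadjusted p under 0.05, where the background was 11.6% and 6.38%, and a median difference of -0.03, or 0.10 after median centring. The metallothioneins Mt1 and Mt2, which bind zinc and are also induced by metals, fell. Mt1 had 10.96 and 11.20 in knockout skin, against 11.74 and 11.83 in heterozygous skin, and fell by 0.70 (SE 0.12, limma adjusted p = 0.0249). Mt2 had 12.36 and 12.63 in knockout skin, against 13.34 and 13.16 in heterozygous skin, and fell by 0.75 (SE 0.13, limma adjusted p = 0.0258). Both calls also ended without knockout mouse 1, where Mt1 differed by -0.58 (limma adjusted p = 0.188) and Mt2 by -0.61 (limma adjusted p = 0.247).

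The genes that rose were Trim63 and Tgm2. Trim63, a ubiquitin ligase of muscle atrophy, had 8.91 and 8.44 in knockout skin, against 7.50 and 7.63 in heterozygous skin, and rose by 1.11 (SE 0.16, limma adjusted p = 0.0113). Skeletal muscle markers were higher in the same arrays, 18 of 20 of them (17 at an unadjusted p under 0.05). Over all tested probe sets, 45.8% had a lower mean in knockout skin, and 11.6% were higher at an unadjusted p under 0.05. Myh7 was 1 of the 2 markers with a lower mean, at -0.73. The mean log2 signal of the 20 markers was 11.91 and 11.59 in knockout skin, against 11.11 and 11.36 in heterozygous skin. The part of muscle content in the Trim63 value was not tested. Tgm2, a transglutaminase, rose by 0.70 (SE 0.11, limma adjusted p = 0.0156), with 9.61 and 9.53 in knockout skin, against 8.84 and 8.90 in heterozygous skin. Its call ended without knockout mouse 1, where it differed by 0.66 (limma adjusted p = 0.1).

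Per1, a period gene of the clock that glucocorticoids also induce, had 8.31 and 8.25 in knockout skin, against 8.73 and 8.67 in heterozygous skin. Both knockout arrays were lower, but the difference of -0.42 (SE 0.11) did not pass (limma adjusted p = 0.0831). Zfp36, which encodes an mRNA-destabilising protein that limits inflammation, differed by -0.46 (SE 0.12, limma adjusted p = 0.0892). Other induced genes lay close to 0, such as Angptl4 at -0.01, Sesn1 at -0.02 and Anxa1, which encodes annexin A1, at 0.03.

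**Figure D5:**
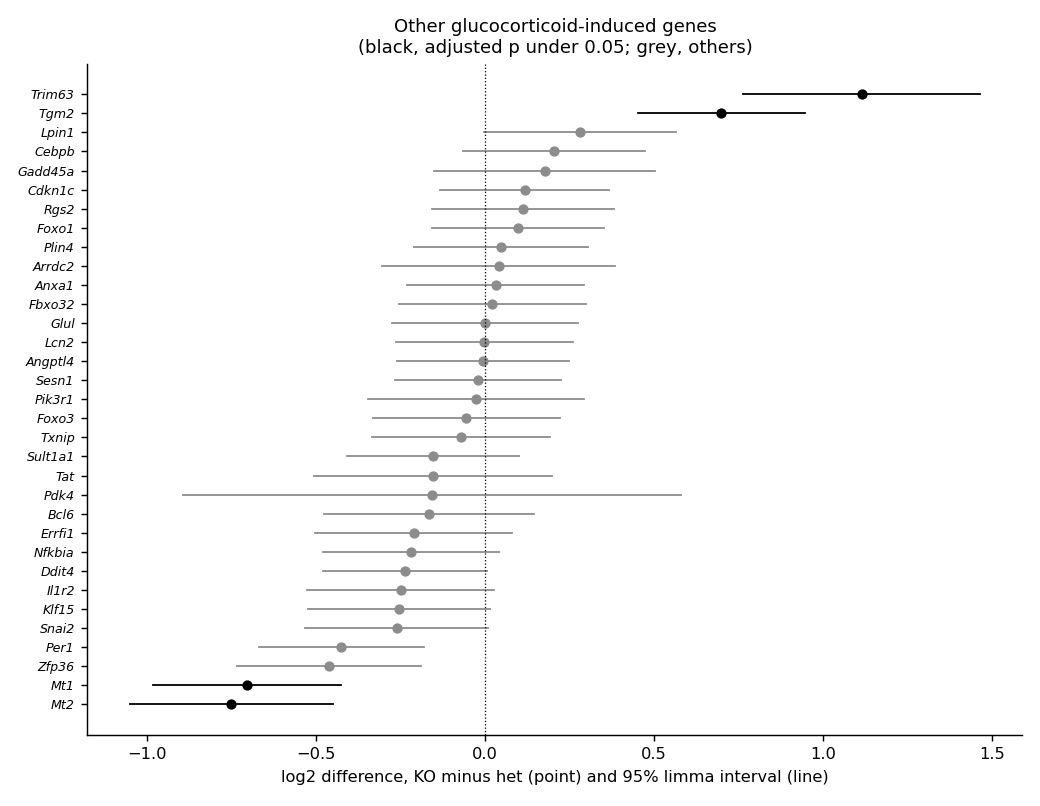
Log2 difference, knockout minus heterozygous (points), with 95% limma intervals (lines) for the 33 tested glucocorticoid-induced genes that are not among the 9 members. Trim63 and Tgm2 at the top and Mt1 and Mt2 at the bottom, in black, passed the adjusted threshold, and most of the other intervals include 0.

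Inflammatory genes that glucocorticoids are known to repress did not move one way. Of 21 listed, 16 were tested, with a median difference of -0.03, and 3 were higher and 1 lower in knockout skin at an unadjusted p under 0.05, where the background was 11.6% and 6.38%. Without heterozygous mouse 2, 3 were higher and 6 lower, with a median of -0.14, and without heterozygous mouse 1 the median was 0.13. Il1a, an interleukin made by keratinocytes, rose by 0.77 (SE 0.13, limma adjusted p = 0.0235), with 8.07 and 8.12 in knockout skin, against 7.47 and 7.18 in heterozygous skin. Its call ended without knockout mouse 1, at 0.80 (limma adjusted p = 0.116), and without knockout mouse 2, at 0.74 (limma adjusted p = 0.0803). The chemokine Ccl5 differed by -0.53 (limma adjusted p = 0.0512), and the matrix proteases Mmp3 and Mmp9 by 0.45 and 0.46.

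Relatives of the members were also set beside them. Over all tested probe sets, 11.6% were higher and 6.38% lower at an unadjusted p under 0.05, and 45.8% had a lower mean in knockout skin. Of 13 other Klf genes tested, 11 had a lower mean in knockout skin and 2 of these had an unadjusted p under 0.05, Klf2 at -0.31 and Klf4 at -0.27, against -0.01 for Klf9. None passed after adjustment, and after median centring 6 of the 13 had a lower mean and 0 an unadjusted p under 0.05. Among 9 other Dusp genes, 3 were higher at an unadjusted p under 0.05: Dusp4 at 0.83 (limma adjusted p = 0.0512), Dusp10 at 0.41 and Dusp6 at 0.30, all MAP kinase phosphatases like Dusp1. After median centring Dusp4 and Dusp10 passed the adjusted threshold, at 0.85 and 0.55. Among 7 other Fkbp genes, Fkbp2, Fkbp3 and Fkbp14 differed by 0.44, 0.44 and 0.47, and Fkbp7 differed by -0.28, none past the adjusted threshold. After median centring Fkbp2, Fkbp3 and Fkbp14 passed it, each at 0.59 or 0.60, and Fkbp7 differed by -0.15, with no unadjusted p under 0.05. Sgk3, the tested relative of Sgk1, differed by -0.38 (limma adjusted p = 0.118), and by -0.23 after median centring, where its unadjusted p was 0.129. No difference between a member and its relatives was tested.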

How the data were processed

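RNA from whole back skin of 4 mice was measured on Affymetrix whole-transcript arrays. Per the submitters' processing notes, signals came from Affymetrix Expression Console 1.1.1 with PLIER 2.0. The deposited values run from 2.54 to 14.9 and were read as log2 signals for that reason. The scale and any normalization across arrays were not given in the sources used here. Arrays give no read depth. No pair of arrays shared identical values at over 0.104% of probe sets. Each array stands for 1 mouse, a littermate per the design text; pooling is not mentioned.

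Quartiles differed by up to 0.337 between arrays, and all 4 were quantile normalized. The array annotation gave 21789 probe sets 1 symbol, 1621 several and 12147 none; no gene was named from several, and symbols of 21698 were checked against a GRCm38.p6 table. Tested were the 16341 probe sets with 1 symbol and a mean above the 25th percentile (6.67), with limma 3.58.1 in R 4.3.3 (eBayes with a trend, 2 residual degrees of freedom, Benjamini-Hochberg over all tested, threshold 0.05). A list counts the probe set with the highest mean of each gene. With 2 against 2, an exact two-sided permutation test cannot go below p = 0.333 and was not used. The fit was tested on simulated data. The members, lists and settings were chosen with earlier results of these data known. Named are all members, Arntl, and up to 6 genes of each list with the smallest p. The closing section names the 3 nearest profiles of Nr3c1, Klf9 and the member with the smallest p. The enzymes around Hsd11b1, Star, Angptl4, Sesn1, Anxa1, Fos, Egr1, Klf2, Klf4, Dusp6, Fkbp7 and slow-fibre genes were chosen after their values were seen. So were Vmn2r9, Olfr514 and the profiles nearest to Zbtb16. Alternatives were median centring, deposited values, an offset of 16, other filters, priors and sets of probe sets, the number in the labels as a block, and each array left out.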

Additional observations from a re-analysis of the deposited data

How the results depend on the processing

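The members stayed without an adjusted call in every setting run except 1: Zbtb16 passed without heterozygous mouse 1, at -0.76. Signs of small differences turned. After median centring Nr3c1 was 0.018, Sgk1 0.11 and Klf9 0.13, and with the values as deposited Sgk1 was 0.077 and Klf9 0.10. With 1 array left out, Nr3c1 ran from -0.18 to -0.07, Hsd11b1 from -0.026 to 0.17, Fkbp5 from 0.04 to 0.13, Tsc22d3 from -0.31 to -0.05, Sgk1 from -0.085 to 0.021, Klf9 from -0.063 to 0.045, Zbtb16 from -0.76 to 0.13, Dusp1 from -0.50 to 0.20 and Cebpd from -0.29 to 0.052. The signs of Hsd11b1, Sgk1, Klf9 (0.045) and Zbtb16 turned without heterozygous mouse 2, that of Dusp1 without knockout mouse 1, and those of Klf9 (0.025) and Cebpd without knockout mouse 2. The median of the members was 0.018 after median centring, where that of all tested probe sets was 0.10, and -0.018 as deposited, where that of all tested probe sets was 0.065. With 1 array left out it ran from -0.069 to -0.020. The count of members at an unadjusted p under 0.05 ran from 0 to 1 with 1 array left out, Zbtb16 without heterozygous mouse 1 and Dusp1 without knockout mouse 2. With the filter at the 50th percentile, 7 members were tested, without Hsd11b1 and Cebpd.

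The count of all probe sets past the limma threshold was 323. It was 913 after median centring, 544 as deposited, 145 without a filter, 0 with all probe sets (3423 at an unadjusted p under 0.05) and 0 with probe sets of several genes added (2713), a setting chosen after seeing the data. With 1 array left out it ran from 77, without knockout mouse 1, to 986, without heterozygous mouse 1. Of probe sets at an unadjusted p under 0.05, 64.4% were higher in knockout skin, against 79.3% after median centring and 50.3% without heterozygous mouse 2. With the replicate block, which pairs mice by their label number, the count was 1235 and 0 members passed; same-numbered mice deviated together with a correlation of 0.167 across probe sets, and the labels do not say that the number marks a litter. The cause of these changes was not tested.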

Other observations

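Some genes had nearly the same profile over the 4 arrays as a member, by the Euclidean distance between log2 values after each gene's own mean was taken off. With so few arrays such likeness is common among 16341 probe sets and is given only as a description. Nearest to Nr3c1 were Arsa (distance 0.0126), Tnfrsf19 (0.0149) and Ly6h (0.0192). Nearest to Klf9 were Iscu (0.00903), Pllp (0.0118) and Fam124b (0.0168), and nearest to Tsc22d3 were Mir320 (0.00442), Mrpl30 (0.0119) and Tesc (0.0237). Among the members, Sgk1 and Klf9 were the closest pair (0.0387), each with heterozygous mouse 2 the highest and heterozygous mouse 1 the lowest array, and Zbtb16 and Dusp1 were the farthest apart (0.965). Heterozygous mouse 2 was the highest array for 4 of the 9 members and for 19.0% of all tested probe sets. It was the lowest array for 1 member and for 41.0% of all tested probe sets.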
